A study of Ginkgo biloba with 15 samples.

Results

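A set of 240 annotated gene models of Ginkgo biloba was highest in embryos collected in November and lower in both September and February. They were selected on measured values, out of 41840 annotated models in a table of 43690. Levels were given in FPKM, a fragment count scaled by the size of the model and of the library. For each month the mean of log2(FPKM + 1) was taken over its 2 libraries. A model was kept when November exceeded September by at least 1.5 and February lay at least 1.5 below November on that scale. Both November libraries also had to lie above the other 4, and the November mean had to reach 5 FPKM. The differences from September to November and from November to February are called the upward and the downward step, and because they chose the genes they are given without a test.

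Embryos came from healthy trees growing outdoors, sampled in September and November of 2015 and in February of 2016, per the labels' protocols, which speak of several stages of development and give no stage for a month. No treatment, genotype or tree age was given, and each month held 2 mRNA libraries. No label said whether the libraries of a month came from separate trees, seeds or pools, so the spread behind each p-value is that of these libraries and may be technical. Month and any difference in collection or handling between months cannot be told apart. The 6 libraries held 14289671 to 19307507 reads recovered from FPKM and length, and 9 small-RNA libraries of the same months were not used for these genes.

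Ginkgo is a gymnosperm whose seeds are shed in autumn with an embryo that is still small. The embryo goes on growing inside the female gametophyte, the haploid tissue that stores the seed's reserves, and the seed passes through a period of dormancy that cold can shorten. Embryo development in seed plants is known to involve genes that are switched on for a limited period, among them genes for reserves, for tolerance of drying and for hormone responses. The deposited table gives a position for each identifier but neither a gene name nor a product. Genes are therefore given by scaffold and position on the authors' assembly, whose build the sources used here do not give, and none could be assigned to a pathway or cell type. Whether the embryos were free of gametophyte tissue was not tested for the same reason.

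Most of the 240 genes were at low levels in September and February, although single genes reached 2119 FPKM in September and 12735 FPKM in February. The median of the set was 2.81 FPKM in September 1 and 2.2 in September 2, 29.5 in November 1 and 28.8 in November 2, and 3.17 in February 1 and 5.36 in February 2. The November mean ranged from 5.01 to 45087 FPKM, and it was at least 100 FPKM for 66 genes and at least 1000 FPKM for 15. In whole embryos, more RNA per cell and more cells that hold the RNA cannot be told apart. The median upward step was 2.69 and the median downward step 2.28 on the log2(FPKM + 1) scale.

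**Figure D1:**
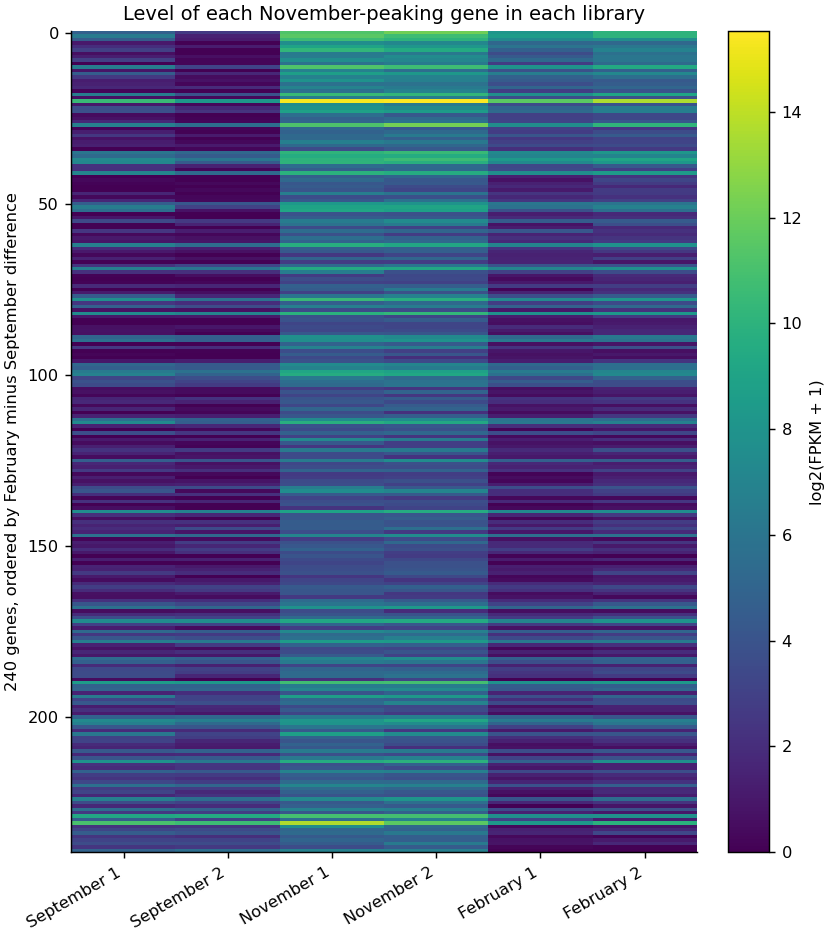
Level of each of the 240 genes (rows) in each of the 6 mRNA libraries (columns), as log2(FPKM + 1) in colour; rows are ordered from the gene with the highest February minus September difference (5.41) at the top to the lowest (-5.27) at the bottom. The 2 November columns are the brightest in each row, as the choice of genes requires, and in the upper rows February is brighter than September.

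As a share of all recovered reads, the set rested on 0.443% ± 0.174 of the September reads, on 4.83% ± 0.284 of those of November and on 0.933% ± 0.475 of those of February (SD, n = 2). Its share was 0.566% in September 1 and 0.32% in September 2, 5.03% and 4.63% in November 1 and 2, and 0.597% and 1.27% in February 1 and 2. At this depth the 95% Wilson intervals were narrow, for example 0.317% to 0.323% in September 2 and 5.02% to 5.04% in November 1, and they cover counting error only. A single gene held 0.853% of the reads of November 1 and 0.935% of those of November 2. Without it the set took 0.425% ± 0.158, 3.94% ± 0.342 and 0.776% ± 0.34 in the 3 months (SD, n = 2).

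The separation of November from the other months differed among the genes. The lower November library was a median of 3.18 times the highest of the other 4 libraries in FPKM, and the range was 1.23 to 175.6 times. It was at least 2 times the highest other library for 207 genes and at least 10 times for 15. The November libraries themselves differed by a median of 1.39-fold in FPKM, and by at least 2-fold for 44 genes. Of the 240 genes, 127 had both steps at 2 or more, 27 at 3 or more and 6 at 4 or more on the log2(FPKM + 1) scale.

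At the borders of the rule, the smallest upward steps inside were 1.505 and 1.511, and the nearest outside were 1.497 and 1.496. The smallest downward steps inside were 1.508 and 1.510, and the nearest outside were 1.495 and 1.490. The lowest November means inside were 5.01 and 5.12 FPKM, and the nearest outside were 4.9 and 4.71 FPKM. A gene just inside, on scaffold 3028 (375505 to 376417), stood at 2.61 and 1.84 FPKM in September, 9.13 and 7.72 in November and 2.73 and 1.93 in February, and is overlapped over its whole span by a model on the opposite strand. A gene just outside, on scaffold 16371 (1352574 to 1354095), stood at 7.41 and 8.4 FPKM in September, 71.3 and 41.4 in November and 14 and 24.6 in February. The rule thus left out genes with a larger upward step than many that it kept.

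Libraries of the same month were not equal for these genes. September 1 was above September 2 for 161 of the 240 (67.1%), against 45.1% of the 22947 models tested, and by at least 2-fold in FPKM + 1 for 49, with 5 the other way. February 2 was above February 1 for 197 (82.1%), against 47.5% of tested models, and by at least 2-fold for 50, with 3 the other way. Both held together for 137 genes (57.1%), against 25.8% of tested models. Between the November libraries the order was close to that of all models, with November 1 the higher for 55.8% of the set and 57.1% of tested models. The highest library outside November was February 2 for 133 genes and September 1 for 51. In September 1 and February 2 the set was thus nearer to its November level than in the other library of the month. Counts of calls between September and February are given with and without these libraries. A fit without a library has less data to estimate the spread, so a call can end there although the difference is unchanged.

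**Figure D2:**
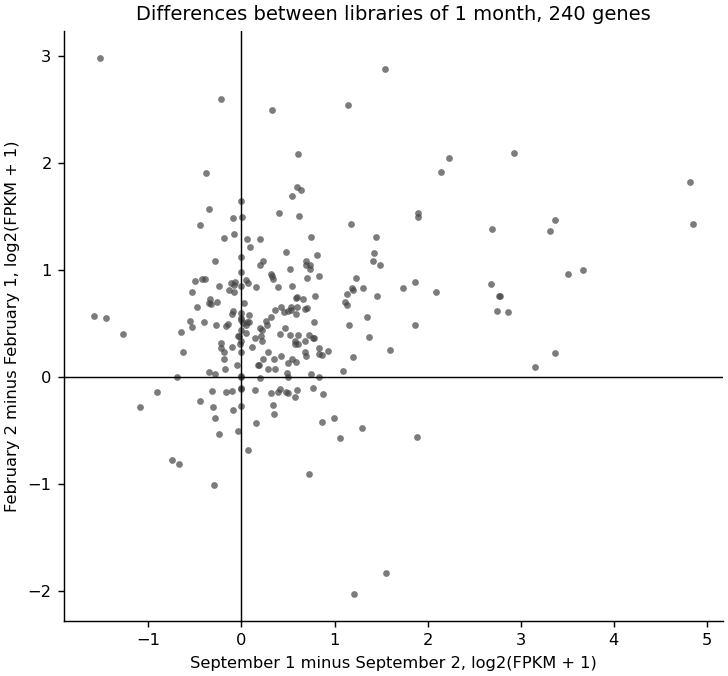
Each point is one of the 240 genes; the horizontal axis gives September 1 minus September 2 and the vertical axis February 2 minus February 1, both on the log2(FPKM + 1) scale. Of the points, 137 lie in the upper right corner area, where September 1 and February 2 are the higher libraries.

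The steepest peaks combined a large step in with a large step out. Ranked by the smaller of the 2 steps, the first was Gb_29977 at scaffold 5448 (56621 to 58272, minus strand). Its values were 1.18 and 1.79 FPKM in September, 158 and 80.4 in November and 1.52 and 3.07 in February. Its steps were 5.53 up and 5.15 down, and none of the 4 other libraries was above 3.07 FPKM. These values rest on 26 and 47 reads in September, 3920 and 2390 in November and 37 and 77 in February. The next was Gb_33827 at scaffold 6620 (237400 to 237864, plus strand), at 15.9 and 0.328 FPKM in September, 186 and 131 in November and 3.01 and 7.06 in February. Its 2 September libraries lay on both sides of its February libraries, with 81 and 2 reads behind the September values. Its unequal September libraries decided the comparison with February, since February was higher without September 1 (limma adjusted p = 0.019), lower without September 2 (limma adjusted p = 0.04) and not called with both (0.84).

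Other steep peaks started from values of 0. A gene at scaffold 1344 (51923 to 52637, plus strand) was listed at 0 in both September libraries, and its November values were 21.8 and 78.5 FPKM and its February values 0.116 and 2.49. A gene at scaffold 2190 (20537 to 22287, minus strand) was also listed at 0 in both September libraries, with November values of 28.2 and 20 FPKM and February values of 0.556 and 0.835. Its February level was called above September (log2 difference 0.76, SE 0.25, limma adjusted p = 0.034). As both September values were 0, that difference is the same without either September library. Leaving out September 1 (limma adjusted p = 0.13), September 2 (0.13), February 1 (0.076) or February 2 (0.15) ended that call, as did a pseudocount of 5 (0.33), no filter (0.058) or a filter of 5 FPKM (0.051), and without a November library the gene missed the filter on low values.

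One steep peak had higher listed values before November than after it. The gene at scaffold 2739 (746732 to 749414, minus strand) stood at 4.02 and 4.16 FPKM in September, 198.3 and 35.6 in November and 0.338 and 0.751 in February. The September and February libraries did not overlap, and their difference of -1.73 (SE 0.71, limma adjusted p = 0.072) did not pass the threshold. It passed with edgeR (adjusted p = 0.033), with DESeq2 (0.014), with a pseudocount of 0.1 (limma, 0.021) and without November 1 or November 2 (limma, 0.00076 and 0.0007). A gene at scaffold 9555 (70371 to 71694, plus strand) had unequal libraries in September and in February. Its values were 46.9 and 0.702 FPKM in September, 572 and 452 in November and 12.9 and 48.1 in February, so that September 1 and February 2 were nearly equal. Its February level was not called against September (limma adjusted p = 0.38) and was higher without September 1 (limma adjusted p = 0.0098). Of the 10 steepest peaks, 3 were called higher in February than in September and 7 were not called, and without February 2 all 3 calls were lost. Over all tested models 27.1% were called higher, and nothing is read from the 3 of 10, because the steps chose these genes. Another of the 3, at scaffold 1976 (1503070 to 1503717, plus strand), was 1.71 higher in February (SE 0.53, limma adjusted p = 0.028). Its call ended without September 2 (limma adjusted p = 0.1), February 1 (0.093) or February 2 (0.13), with a pseudocount of 0.1 (0.059) or 5 (0.064), without a filter (0.053), and with edgeR (adjusted p = 0.061) or DESeq2 (0.26).

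The 15 genes at 1000 FPKM or more in November had a median listed length of 510 bases, against 806.5 in the whole set. The most abundant lay at scaffold 5718 (2801592 to 2802124, plus strand), with a listed length of 195 bases. Its values were 1483 and 316 FPKM in September, 43026.5 and 47147.3 in November and 3077 and 12735 in February. Its February level was called above September, by 3.19 on the log2(FPKM + 1) scale (SE 0.9, limma adjusted p = 0.021), a call that ended without September 2 (limma adjusted p = 0.15) or February 2 (0.1), and without a filter on low values (0.053). The second, at scaffold 1107 (188510 to 188962, minus strand), had 2119 and 1605 FPKM in September, 13108 and 3119 in November and 328 and 952 in February. Its November libraries differed 4.2-fold, and its February libraries were both below September with a difference of -1.72 (SE 0.76, limma adjusted p = 0.09) that did not pass. It passed without November 1 or November 2 (limma adjusted p = 0.019 and 0.02) and in a fit of the September and February libraries alone (0.019).

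The next genes in that order, at scaffolds 4973 and 960, were higher in November 2 than in November 1. The gene at scaffold 4973 (86938 to 87758, minus strand) held 109 and 48.6 FPKM in September, 2287 and 4992 in November and 191 and 1119 in February, where it was 2.65 higher than in September (SE 0.85, limma adjusted p = 0.033). Leaving out September 1 (limma adjusted p = 0.052), September 2 (0.16) or February 2 (0.13) ended that call, as did fitting without a filter (0.062). The gene at scaffold 960 (665571 to 667187, plus strand) held 26.2 and 5.14 FPKM in September, 2483 and 4635 in November and 282 and 1069 in February. The latter had the largest February minus September difference of the set, 5.41 (SE 0.85, limma adjusted p = 0.0021), with a p of at most 0.016 in each fit with a library left out. A gene at scaffold 7373 (776718 to 777498, plus strand) had 80.6 and 1.84 FPKM in September, 2955 and 1649 in November and 381 and 1029 in February, a difference of 5.37 (SE 1.42, limma adjusted p = 0.016). Leaving out February 1 (limma adjusted p = 0.054) or February 2 (0.099) ended the call.

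Of the abundant genes, 2 had libraries that lay close together within each month. At scaffold 2316 (2980099 to 2980377, plus strand) a gene had a September mean of 673 ± 61.1 FPKM, a November mean of 1941 ± 83.7 and a February mean of 221.6 ± 18.2 (SD, n = 2). Its September libraries, 630 and 716 FPKM, lay above its February libraries, 208.7 and 234, and the fall of 1.6 on the log2(FPKM + 1) scale passed the test (SE 0.2, limma adjusted p = 0.00091). At scaffold 8799 (197253 to 200803, plus strand) the means of another were 344 ± 46.1, 1801 ± 109 and 290 ± 69.6 FPKM in the same order (SD, n = 2). The September and February libraries of that gene overlapped, and their difference was -0.26 (SE 0.24, limma adjusted p = 0.38). Over all tested models 27.1% were called higher in February and 33.9% lower. Among the 10 most abundant genes, 7 were called higher in February, 1 was called lower and 2 were not called, and February 2 was above February 1 in all 10. November level chose these 10 genes, so nothing is read from how they compare with all models. Without February 2 the calls were 3 higher and 1 lower, without September 2 they were 5 and 1, and without September 1 they were 6 and 1.

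Whether the genes returned to their September level by February was compared next. The choice of genes set no limit on this difference, but it is the sum of both steps. A linear model with limma on log2(FPKM + 1) was fitted across all models, with Benjamini-Hochberg adjustment and a threshold of 0.05. Of the 240 genes, 73 (30.4%) were higher in February than in September, where 27.1% of all 22947 tested models were. Those called lower numbered 21 (8.75%), where 33.9% of all tested models were. The other 146 were not called, of which 11 had an unadjusted p under 0.05, and a p above the threshold does not show that the months were equal. In the September and February libraries alone, 202 of the 240 genes reached 1 FPKM in at least 2, so 38 passed the filter on low values through November. Of these 202, 67 (33.2%) were called higher and 21 (10.4%) lower, against 27.6% and 34.7% of the 22318 tested models that reached that level, a count added after seeing the data. Since the difference is the sum of the steps that chose the genes, nothing is read from how these shares compare with those of all models.

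The median February minus September difference was 0.36 over the 240 genes and -0.13 over all tested models on the log2(FPKM + 1) scale. The middle 50% of the set lay between -0.15 and 1.37, against -0.98 and 0.76 for all tested models. The set's median lay above 0 with TMM factors (0.43) and RLE factors (0.44) too, which moved the median of all tested models to -0.02 and -0.0035. Both February libraries lay above both September libraries for 107 genes and below them for 36, and the months overlapped for 97. Single libraries moved the set's median, to 0.21 without February 2, 0.29 without September 2, 0.59 without September 1 and 0.61 without February 1. With September 1 and February 2 both left out it was 0.34, and February 1 was above September 2 for 147 genes and below it for 91. The median gene lost 86.8% of its upward step by February on the log2 scale.

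These counts changed when libraries were left out. Shares of all tested models are not given for those fits, so nothing is read about the set from the changes. The 73 higher calls became 44 without February 2, 49 without September 2, and 72 to 76 without any other single library, where 220 of the genes passed the filter without a November library. The 21 lower calls became 11 without February 1, 13 without September 1, and 19 to 26 without any other. With September 1 and February 2 both left out, the libraries nearer to November, 44 genes were called higher and 6 lower. In all 6 fits with a library left out, 41 of the higher and 9 of the lower calls were kept, and none of the 94 was called in the opposite direction. With edgeR on recovered reads, 82 of 239 genes were called higher, against 29.0% of 23265 tested models, and 20 lower, against 29.7%.

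**Figure D3:**
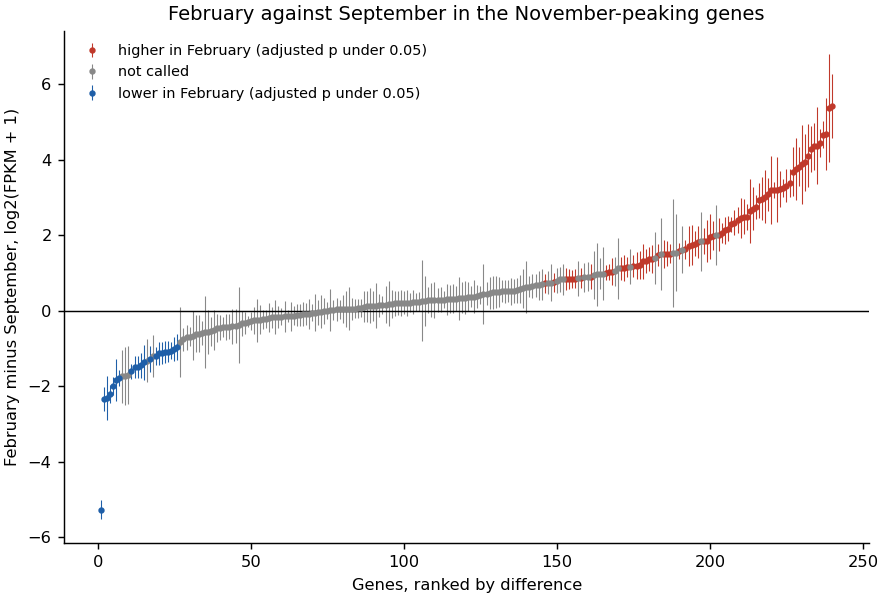
February minus September difference of each of the 240 genes on the log2(FPKM + 1) scale, ranked, with the standard error from limma as bars. Red marks the 73 genes called higher and blue the 21 called lower in February at an adjusted p under 0.05; most of the 146 grey genes lie near 0 or have wide bars.

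The genes called higher in February had the larger upward steps. Their median upward step was 4.42 and their median downward step 2.03, and their medians were 0.968 FPKM for September, 56.4 for November and 12.4 for February. They had lost a median of 49.9% of the upward step by February on the log2 scale. The genes called lower had a median upward step of 1.69 and a median downward step of 3.3, with medians of 7.48, 30.6 and 1.7 FPKM in the same order. For the 146 genes not called the medians were 3.05, 22.6 and 3.56 FPKM. Because the February minus September difference is the sum of both steps, these sizes follow from the calls and add nothing to them.

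**Figure D4:**
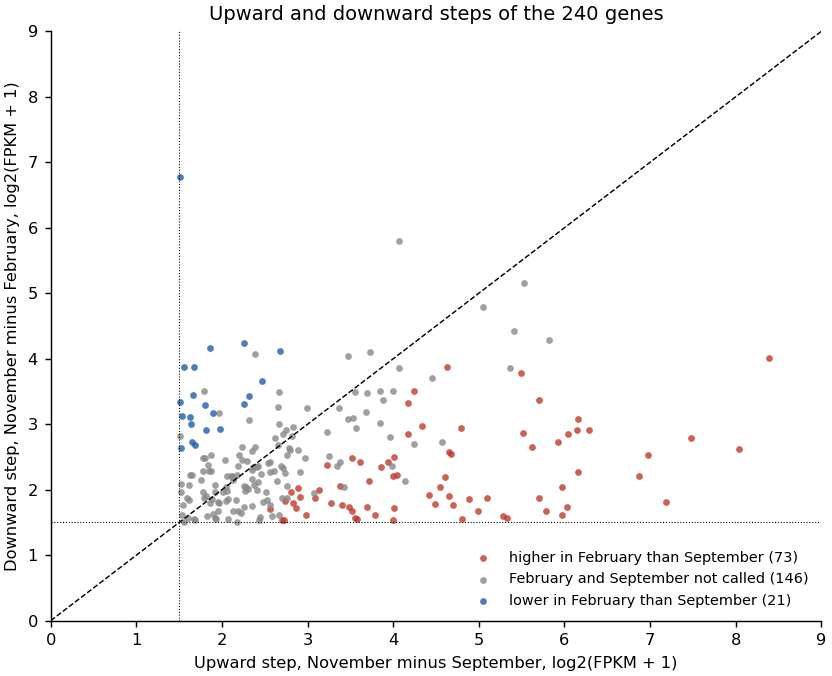
Upward step (November minus September, horizontal) against downward step (November minus February, vertical) of the 240 genes, both on the log2(FPKM + 1) scale; dotted lines mark the limits of 1.5 that chose the genes and the dashed line equal steps. The 73 red genes, higher in February than in September, lie to the right of the dashed line and the 21 blue genes, lower in February, to its left.

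Among the 5 genes with the largest February minus September difference, those at scaffolds 889 and 12682 had the smallest standard errors. The gene at scaffold 889 (1159503 to 1159931, plus strand) stood at 1.12 and 0 FPKM in September, 196 and 147 in November and 35.2 and 36.6 in February. It rose by 4.66 between September and February (SE 0.36, limma adjusted p = 0.00021). The gene at scaffold 12682 (195632 to 196603, minus strand) stood at 3.06 and 1.28 FPKM in September, 516 and 285 in November and 60.5 and 70.7 in February, and rose by 4.45 (SE 0.36, limma adjusted p = 0.00025). Both calls held in all 6 fits with a library left out, with adjusted p of at most 0.0046. A gene at scaffold 1976 (1495092 to 1495502, plus strand) had 22.3 and 1.26 FPKM in September, 1567 and 1069 in November and 173 and 203 in February, and rose by 4.7 (SE 0.95, limma adjusted p = 0.0058). Its September libraries differed far more than its February libraries, and the months did not overlap.

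Among genes called lower in February, the largest fall was that of the gene at scaffold 3017 (253147 to 253635, plus strand). Its values were 29.4 and 48 FPKM in September and 114 and 103 in November, and it was listed at 0 in both February libraries. The September values rest on 156 and 305 reads and the November values on 685 and 742. The fitted difference from September was -5.27 (SE 0.25, limma adjusted p = 0.00013), which depends on the pseudocount because February was at 0. Its upward step of 1.505 was the smallest of the set, so that it was in the set by a narrow margin.

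The next falls started from lower levels. The gene on scaffold 6040 (839884 to 842159) had 4.22 and 4.85 FPKM in September, 11 and 21 in November and 0.152 and 0.0493 in February, and fell by 2.33 (SE 0.32, limma adjusted p = 0.0013). The gene on scaffold 5318 (204565 to 204966) had 11.1 and 10.6 FPKM in September, 22.1 and 79 in November and 0.773 and 2.25 in February, and fell by 2.31 (SE 0.58, limma adjusted p = 0.013). Leaving out September 1 (limma adjusted p = 0.058), September 2 (0.053) or February 1 (0.091), or a pseudocount of 5 (0.053), ended the second call. Genes on scaffold 1423 (683387 to 683839) and scaffold 10760 (235033 to 235630) fell by 2.2 (SE 0.24, limma adjusted p = 0.00057) and 1.98 (SE 0.24, limma adjusted p = 0.00083). The first of these had 7.76 and 7.88 FPKM in September, 30.8 and 23.9 in November and 0.686 and 1.2 in February. In each of the 4 genes both February libraries lay below both September libraries.

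Counts of calls were taken by November level, without a test between levels. The rule used that level, which enters the upward step and so the February minus September difference. Over all tested models 27.1% were called higher in February and 33.9% lower, and shares at matched levels were not taken. Nothing is therefore read from how the counts differ between levels. Of 89 genes with a November mean from 5 to 20 FPKM, 17 were called higher in February and 4 lower. From 20 to 100 FPKM the counts were 28 and 12 of 85, and from 100 to 1000 FPKM 18 and 4 of 51. Of the 15 genes at 1000 FPKM or more, 10 were called higher and 1 lower, and their median February minus September difference was 2.13. Without February 2 the counts higher and lower were 9 and 4, 20 and 14, 11 and 7, and 4 and 1 from the lowest to the highest class, and without September 2 they were 7 and 3, 21 and 8, 14 and 7, and 7 and 1. With September 1 and February 2 both left out they were 0 and 1, 17 and 3, 18 and 1, and 9 and 1, and in the lowest class 6 genes were higher at an unadjusted p under 0.05 (limma). Without September 1 they were 9 and 3, 27 and 7, 25 and 2, and 11 and 1, and without February 1 they were 17 and 1, 29 and 7, 20 and 2, and 9 and 1. The median upward step went from 2.45 in the lowest of these 4 classes to 4.67 in the highest, and the median downward step from 2.21 to 2.54. In the highest class September 1 was above September 2 for 14 of 15 genes and February 2 above February 1 for all 15. Low values are compressed on the log2(FPKM + 1) scale, which limits the steps of the lowest class, and its part in these differences was not tested.

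Genes at 0 before or after the peak were few. Of the 240 genes, 14 were listed at 0 in both September libraries, with November means from 5.74 to 50.1 FPKM. For their lengths and these depths a value of 0 allows up to 3 reads, which is 0.0947 to 0.615 FPKM. With September at 0, February could only be equal or higher, so a lower call was not possible. Without November 1, or without November 2, only 8 of the 14 passed the filter on low values. Over all tested models 27.1% were called higher in February, and nothing is read from how the counts below compare with that share. Of these 14 genes, 8 were called higher in February and 6 were not called, and 4 were called higher without September 1, without September 2 or without February 2. With September 1 and February 2 both left out, limma called none of the 14, of which 3 were higher at an unadjusted p under 0.05. Only 2 genes were listed at 0 in both February libraries, the gene on scaffold 3017 described above and a gene on scaffold 15022 (4788 to 4955), and for them 3 reads are 0.495 to 1.11 FPKM. The gene on scaffold 15022 had 0.41 and 0 FPKM in September and 3.27 and 7.58 in November.

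The rule set no limit on the length or span of a gene model, though the FPKM it used is scaled by listed length. The models of the 240 genes were compact. Their genomic span, from start to end, had a median of 1059 bp with quartiles of 659 and 1851 bp. The 16307 other annotated models with a mean of at least 5 FPKM in some month had a median span of 3385 bp with quartiles of 1425 and 64222 bp. Spans of 10 kb or more belonged to 4 of the 240 (1.67%) and to 36.7% of the other models. Spans of 100 kb or more belonged to 1 of the 240 (0.417%) and to 18.6% of the others. These shares were described without a test, because genes are not replicates.

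**Figure D5:**
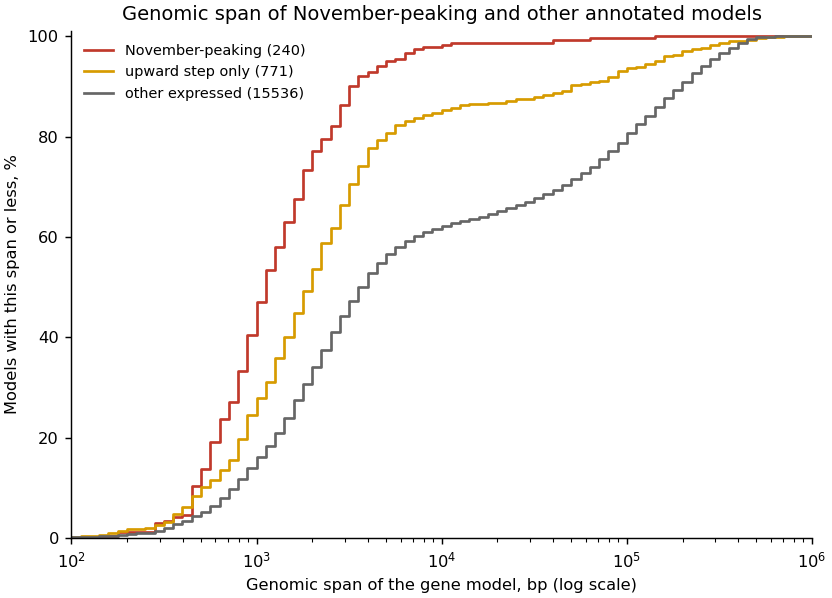
Percentage of annotated models (vertical) with a genomic span up to the value on the horizontal axis (bp, log scale), for the 240 November-peaking genes, 771 models that met the upward step and the November level but were not in the set, and 15536 other models with at least 5 FPKM in some month. The curve of the November-peaking genes stands at 98.3% at 10000 bp, against 85.3% for the upward step alone and 62.2% for the other models.

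The listed length, on which FPKM is based, differed less. Its median was 806.5 bases in the set and 1134 in the other expressed models, and quartiles were 488 and 1190 bases in the set and 639 and 1812 in the others. In the set 84.2% of listed lengths were multiples of 3, against 87.4% in the other expressed models. Length and span were equal, as in a model without introns, for 65 of the 240 (27.1%) and for 16.3% of the others. The set was divided evenly between the strands, with 120 genes on each.

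Compact models were also common in other changing genes. The 771 annotated models that met the upward step and the November level without being in the set had a median span of 1825 bp, and 14.7% of them spanned 10 kb or more. The mirrored rule, for annotated models lowest in November, gave 50 models with a median span of 1513 bp, of which 1 (2%) spanned 10 kb or more. Length and span were equal for 28% of these 50 models and for 20.8% of the 771. Within the set the median span was 915 bp for genes called higher in February, 1052 bp for those called lower and 1078 bp for those not called. At matched levels the order was kept, since between 5 and 20 FPKM in the highest month the medians were 1166 bp in the set and 2844 bp in other models. Between 20 and 100 FPKM they were 1080 and 4670 bp, and at 100 FPKM or more 970.5 and 2801 bp.

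Among the 4 genes that spanned 10 kb or more, the November libraries also stood apart, as the choice requires. The longest, on scaffold 7257 (313739 to 449279), spanned 135541 bp and held 2.58 and 2.16 FPKM in September, 25.7 and 22.8 in November and 5.52 and 6.08 in February. The most abundant of them, on scaffold 2220 (194851 to 205736), held 63.6 and 36.3 FPKM in September, 1105 and 1417 in November and 164 and 279 in February. In both genes the 3 months did not overlap.

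The set was spread over 220 scaffolds of the 8272 in the table. On 14 scaffolds there were 2 or more of its genes, 34 in all, and on 3 scaffolds there were 4. In order of start position along each scaffold, 21 genes (8.75%) came directly before or after another gene of the set, in 10 runs. An annotated model lying inside a gene of the set breaks a run in this order, as on scaffolds 46590 and 2528. Of all annotated models, 0.574% belonged to the set. That is a share of single models, whereas the 8.75% counts a neighbour on either side. The shares are therefore not alike, and they were described without a test. Of the 21, 14 lay within 100 kb of that neighbour, and 10 had a neighbour on the same strand.

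On scaffold 46590, 4 of 6 annotated models belonged to the set. From the lowest to the highest position, the gene at 19831 to 21049 held 170.7 and 24.7 FPKM in September, 882 and 665 in November and 71.8 and 111 in February. The gene at 142867 to 144103 held 108 and 39.9, then 265 and 196, then 31.2 and 67.3 FPKM. The gene at 252612 to 253534 was much lower, at 7.66 and 2.16, then 15.7 and 14.7, then 1.65 and 3.5 FPKM. The gene at 401613 to 402726 held 85.1 and 7.63, then 418 and 310, then 12.1 and 32.7 FPKM. All 4 had September 1 above September 2, November 1 above November 2 and February 2 above February 1, and none was called between September and February (limma adjusted p = 0.33 to 0.76). Single September libraries decided this for 3 of them, since the first was higher in February without September 1 (limma adjusted p = 0.012), and the third and the last by position were lower without September 2 (0.04 and 0.033). Of the other 2 models on the scaffold, 1 was listed at 0 in all 6 libraries, and the other (657330 to 661192) held 17.5 and 0.574 FPKM in September, 372 and 594 in November and 181 and 243 in February. It missed the set because its downward step was 1.16.

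On scaffold 8610, the 4 genes of the set were among 11 annotated models and had listed lengths of 489, 489, 387 and 489 bases. The gene at 1352265 to 1353004 held 1.41 and 0.707 FPKM in September, 236 and 106 in November and 21.3 and 19.1 in February. The gene at 1930404 to 1931033 held 0.987 and 0.236, then 170 and 72.6, then 10.8 and 14 FPKM. The genes at 2327025 to 2327598 and 2337604 to 2338181, 10005 bp apart, were lower, with 36.2 and 26.4 FPKM and 48.5 and 27.1 FPKM in November. All 4 were called higher in February than in September, by 3.39, 3.08, 2.41 and 1.37 in the order of position (SE 0.38, 0.43, 0.34 and 0.32, limma adjusted p = 0.00064, 0.0014, 0.0015 and 0.011). For the last, leaving out September 2 (limma adjusted p = 0.064) or February 2 (0.062), or a pseudocount of 5 (0.08), ended the call. The single other annotated model between them was listed at 0 in all 6 libraries.

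On scaffold 2528, the 4 genes of the set were among 56 annotated models and lay within 171389 bp. The genes at 6203698 to 6204465 and 6338138 to 6338906 had the same listed length, 687 bases, and that at 6374313 to 6375086 had 690. They held 1196 and 717 FPKM, 2454 and 1679 FPKM and 779 and 613 FPKM in November. In September they held 6.62 and 0 FPKM, 90.8 and 7.88 FPKM and 112 and 29.4 FPKM, with September 1 the higher library each time. In February they held 26.7 and 117 FPKM, 251 and 700 FPKM and 52.8 and 151 FPKM, with February 2 the higher. The first had the largest upward step of the set, 8.39, and the first and second were called higher in February, by 4.37 (SE 1.02, limma adjusted p = 0.01) and 3.88 (SE 1.04, limma adjusted p = 0.017). Both calls ended without February 2 (limma adjusted p = 0.069 and 0.11), and the first also with DESeq2 (adjusted p = 0.074). The remaining gene (6261408 to 6262650) was on the other strand, held 13.7 and 5.64 FPKM in November and was called higher in February by 1.37 (SE 0.38, limma adjusted p = 0.02). That ended without September 1 (limma adjusted p = 0.069), September 2 (0.086), February 1 (0.065) or February 2 (0.1), or with a pseudocount of 5 (0.14). Between them a model of 684 bases (6355152 to 6355923) held 6.68 and 10 FPKM in November and missed the set with a downward step of 1.39. Genes of nearly equal length on 1 scaffold could be copies that share reads, which the table does not show.

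Overlap with other models touched few of the 240. A model on the opposite strand overlapped 22 of them (9.17%), against 18.1% of the other expressed models. The share was 12.8% for the 771 models that met the upward step without being in the set. It was 10% for the 50 models lowest in November. Each of these groups had a longer median span than the set, and shares at matched spans were not taken. The overlapping model had a November mean under 1 FPKM for 15 of the 22, and in none did it meet both steps of 1.5. The gene with the steepest peak, Gb_29977, was among the 22, and its partner was listed at 0 in November. For 3 of the 22 the partner had the higher November mean. It was 358 FPKM against 53 for the gene on scaffold 10117 (553677 to 554129), 57.8 against 16.4 FPKM for that on scaffold 13483 (580609 to 580881), and 16.2 against 8.42 FPKM for that on scaffold 3028 given above as a border case. The use of strand in counting is not given, so reads of such a gene and its partner cannot be told apart.

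Both steps themselves passed limma's threshold for most of the set, which the choice made likely. The November minus September difference passed upward for 230 of 240, where 14.6% of all tested models did, and the February minus November difference passed downward for 219, where 22.6% did. Both passed for 210, where 3.91% of tested models did. Nothing is read from these counts, since the same contrasts chose the genes. Beside the 240 annotated genes, 25 of the 1850 models added by the authors met the same thresholds, and they were not part of the set.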

How the data were processed

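The authors deposited FPKM per gene and library, per the file headers. Per the submitters' processing notes the tools were TopHat2 2.0.12, HTSeq 0.6.1, CASAVA 1.8 and Bowtie, with no roles. Build, annotation and strand setting are not stated there or in the file headers. A deposited table of raw read counts per miRNA name served only to record its library totals (90008 to 1269029). FPKM times length was a whole multiple of a step per library, within 0.05 of a read, for 98.74% to 98.81% of values. The 626 models with a value that was not a whole read were left out of count tests.

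The main test was limma 3.58.1 (R 4.3.3, trend = TRUE) on log2(FPKM + 1) in the 6 libraries, without a block, for the 22947 models that reached 1 FPKM in 2 or more libraries, leaving 3 residual degrees of freedom. All 240 genes passed that filter. Fits with a library left out have fewer residual degrees of freedom. Differences on this scale understate changes of low genes. edgeR 4.0.16 and DESeq2 1.42.0 on recovered reads (at least 10 reads in at least 2 libraries) were alternatives. The fits were tested on simulated data. Named genes were the 10 with the largest smaller step, the 10 with the highest November mean, the 5 largest rises and falls between September and February, border cases and runs of neighbours. Identifiers are printed for 2. Other genes singled out were chosen after their values were seen. Members, lists and tests were chosen with earlier results of these data known. Gene lists and markers by product could not be applied.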

Additional observations from a re-analysis of the deposited data

How the results depend on the processing

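The number of genes meeting the rule was 240, and 299 with a pseudocount of 0.1, 127 with a pseudocount of 5, 513 with steps of at least 1, 127 with steps of at least 2, 264 with a November mean of at least 1 FPKM, 151 with at least 20 FPKM and 232 and 230 with TMM and RLE factors. With a library left out it was 202 to 301, of which 194 to 232 belonged to the 240. In such fits the lone library of a month is assumed to vary like those of the other months. Shares of all tested models are not given for them. Genes called higher in February than in September numbered 58 to 90 over the alternatives of scaling, pseudocount, filter, tool and block, against 73, and 44 to 76 with a library left out. Genes called lower numbered 17 to 25, against 21, and 11 to 26 with a library left out. Genes past the threshold in both steps numbered 186 to 224, against 210, and 146 to 190 with a library left out. With September 1 and February 2 left out together, an alternative chosen after seeing the data, 44 genes were called higher and 6 lower. None of the 94 calls turned to the opposite direction in any fit. The median February minus September difference stayed above 0, between 0.15 and 0.65. Genes next to another gene of the set numbered 21, 14 within 100 kb, 10 on the same strand, and 34 when any gene of the set within 1 Mb counted. The cause of these shifts was not tested, except that other limits select other genes by construction.

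Same-numbered libraries were not shown to be paired. Across tested models their deviations were correlated at -0.086 between September and November, 0.098 between November and February and -0.18 between September and February. With the replicate block 70 genes were called higher and 23 lower, and 213 passed in both steps. Of 27 named calls the block ended 1, that of the gene on scaffold 2190 (20537 to 22287; limma adjusted p = 0.057). With the February numbers crossed, chosen after seeing the data, the counts were 81 and 23. Depth limits mainly the genes at or near 0 in September or February.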
